A study of Mus musculus with 300 samples.

Results

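The transcripts of 7 genes for nuclear factors linked to undifferentiated spermatogonia, Zbtb16, Sall4, Pou5f1, Utf1, Taf4b, Glis3 and Foxo3, were followed through 300 single spermatogonia of adult mice. The genes were taken by name, as 7 of the 23354 gene names in the expression table. The cells carried an ID4-EGFP reporter, were sorted as CD9-bright and EGFP-positive, and came from untreated animals whose strain and exact age, like the reporter's construct, are not given in the sources used here. Each cell had been placed in a quartile of EGFP brightness on its capture chip: Q1, the brightest, held 79 cells, Q2 held 78, Q3 held 71 and Q4, the dimmest, held 72. The titles number 4 preparations, each from at least 2 mice, and the preparation served as the replicate (n = 4). A preparation and quartile together held 15 to 22 cells. No EGFP-negative cells were among the samples, so every comparison lies within the reporter-positive pool.

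Spermatogonial stem cells sit among the undifferentiated spermatogonia and either renew themselves or produce progenitors that commit to differentiation. ID4 is a regulator enriched in the stem cell end of that pool, so the quartiles ask whether a factor's transcript follows reporter brightness. Zbtb16 encodes PLZF, a BTB zinc finger repressor needed for stem cell maintenance, and Sall4 encodes a zinc finger protein that binds PLZF and recruits the NuRD corepressor complex. Pou5f1 encodes the pluripotency factor OCT4, and Utf1 a chromatin protein of pluripotent cells that also marks undifferentiated spermatogonia. Taf4b is a germ cell subunit of the general transcription factor TFIID, Glis3 a zinc finger factor of early undifferentiated spermatogonia, and Foxo3 a forkhead factor held out of the nucleus by AKT signalling.

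Of the 7 genes, Glis3 was the one whose level passed the test, and it was higher in bright cells. Its mean log2(FPKM + 1) was 2.37 ± 1.12 in Q1, against 0.96 ± 0.53 in Q4 (SD, n = 4), where FPKM is a fragment count scaled by transcript length and by the library's total. Utf1 was the member with the largest difference in the other direction, at 0.64 ± 0.46 in Q1 and 1.29 ± 1.07 in Q4 (SD, n = 4), and it did not pass. Their promoter windows are shown because the 2 genes lay at opposite ends of the 7 estimates. Each window is the RefSeq table's entry (GRCm38.p6) of 300 bases, most of them upstream of the start, read on the gene's own strand with matches to the GC box (GGGCGG or its reverse complement) in capitals. The Glis3 window is chr19:28680028-28680327 on the minus strand, and the Utf1 window is chr7:139943606-139943905 on the plus strand.
Glis3: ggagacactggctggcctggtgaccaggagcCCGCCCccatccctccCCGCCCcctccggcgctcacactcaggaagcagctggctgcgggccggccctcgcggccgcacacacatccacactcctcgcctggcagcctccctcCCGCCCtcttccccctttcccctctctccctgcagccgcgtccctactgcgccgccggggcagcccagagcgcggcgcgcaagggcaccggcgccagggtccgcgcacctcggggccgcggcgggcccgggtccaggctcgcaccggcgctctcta
Utf1: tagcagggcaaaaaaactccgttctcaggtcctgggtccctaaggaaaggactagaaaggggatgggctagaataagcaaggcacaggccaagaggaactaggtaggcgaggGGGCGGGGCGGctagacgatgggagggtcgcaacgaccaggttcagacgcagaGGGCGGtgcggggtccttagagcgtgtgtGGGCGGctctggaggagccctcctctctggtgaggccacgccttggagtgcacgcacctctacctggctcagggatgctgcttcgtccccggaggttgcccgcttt

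The Glis3 window had 76.3% G and C, 32 CG pairs and 3 GC box matches. The Utf1 window had 62% G and C, 17 CG pairs and 4 GC box matches, of which the first and second overlap. The median promoter window in the table held 7 CG pairs, and 35.7% of the 32851 windows held a GC box. The octamer ATGCAAAT (1.74% of windows), the FOXO motif GTAAACA (3.65%) and TATAAA (13.6%), searched on both strands, matched neither window. A match or its absence describes these letters in these windows and nothing of a factor's binding. The table had entries for 4 of the 7 genes.

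The levels of the 7 genes spanned nearly the whole range of the 10411 genes tested, which are those at 1 FPKM or more in at least 30 cells. Averaged over quartiles, Sall4 lay between 7.09 and 7.69 on the log2(FPKM + 1) scale in the 4 preparations, above 97.0% of tested genes in its overall mean. Zbtb16 ran from 3.12 to 5.47 and Taf4b from 3.58 to 4.21, so these neighbours in the order of levels overlapped. Glis3 ran from 0.97 to 2.32 and overlapped Utf1, which ran from 0.16 to 1.38. Utf1 in turn overlapped Foxo3, at 0.26 to 0.53, and Pou5f1, at 0.12 to 0.42. Sall4 stood clear of all other members in every preparation.

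Detection followed the same order. Sall4 reached 1 FPKM in 294 of 300 cells, Zbtb16 in 268 and Taf4b in 229, and all of these 3 together in 208 cells (69.3%). Glis3 reached it in 150 cells (50%), Utf1 in 60 (20%), Foxo3 in 33 (11%) and Pou5f1 in 30 (10%). No cell had all 7 genes at 1 FPKM, 5 cells had 6 of them, and every cell had at least 1. The mean number of detected members per cell was 3.70 ± 0.64 for Q1, 3.45 ± 0.42 for Q2, 3.66 ± 0.59 for Q3 and 3.24 ± 0.70 for Q4 (SD, n = 4). The low detection of Pou5f1 and Foxo3 is within the range of the most often detected markers of other cell types. Of 33 markers of Sertoli, Leydig, myoid, endothelial cells and leukocytes in the table, 5 reached 1 FPKM in at least 30 cells. The median over these markers was 8 cells. Utf1, in 60 cells, lay below the endothelial marker Flt1 only, which reached 1 FPKM in 65. The next was the leukocyte marker Cd68, in 45.

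**Figure D1:**
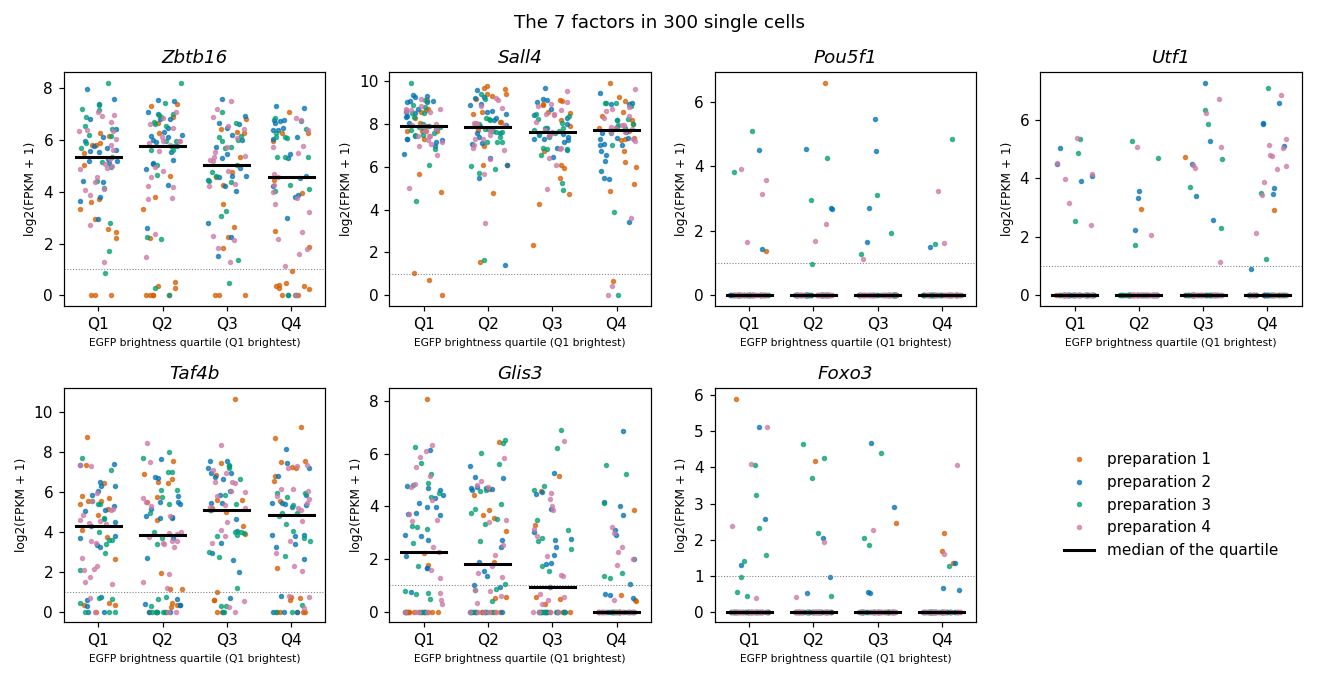
Single-cell log2(FPKM + 1) values (y axis) of the 7 genes in brightness quartiles Q1 to Q4 (x axis), with 1 point per cell coloured by preparation, the median of each quartile as a black bar and a dotted line at 1 FPKM. Sall4 fills nearly every cell, Pou5f1, Utf1 and Foxo3 stand at 0 in most cells, and the median of Glis3 is at 0 in Q4 only.

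The labelled cell type was checked by its markers. All 8 germ cell markers were detected and every cell had at least 3 of them, among them Dazl, an RNA-binding protein of germ cells, in 300 cells. At least 3 markers of a single somatic list were found in 13 cells, 10 of them with leukocyte markers. Markers of later germ cells were more frequent, with at least 3 of 7 pachytene spermatocyte markers in 38 cells and at least 3 of 7 spermatid markers in 41 cells. Of these markers, the pachytene Tbpl1 was found in 266 cells and the spermatid Tnp1 in 153, so 3 markers need not mean a later germ cell. The part of the cells with at least 3 such markers in the results was not tested. Genes detected per cell, the stand-in used here for depth, averaged 5687 ± 697 in Q1 and 5356 ± 810 in Q4 (SD, n = 4). Preparation 1 stood apart with 4368 genes per cell, against 5572 to 6216 in the other 3. Its Zbtb16, Glis3 and Utf1 levels were also lower, at 3.12, 0.97 and 0.16 against 4.79 to 5.47, 1.88 to 2.32 and 0.85 to 1.38 in the other preparations. So were Sall4 (7.09 against 7.43 to 7.69), Pou5f1 (0.12 against 0.27 to 0.42) and, narrowly, Foxo3 (0.262 against 0.270 to 0.525), but not Taf4b. Results are therefore given without preparation 1 where they rest on it.

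**Figure D2:**
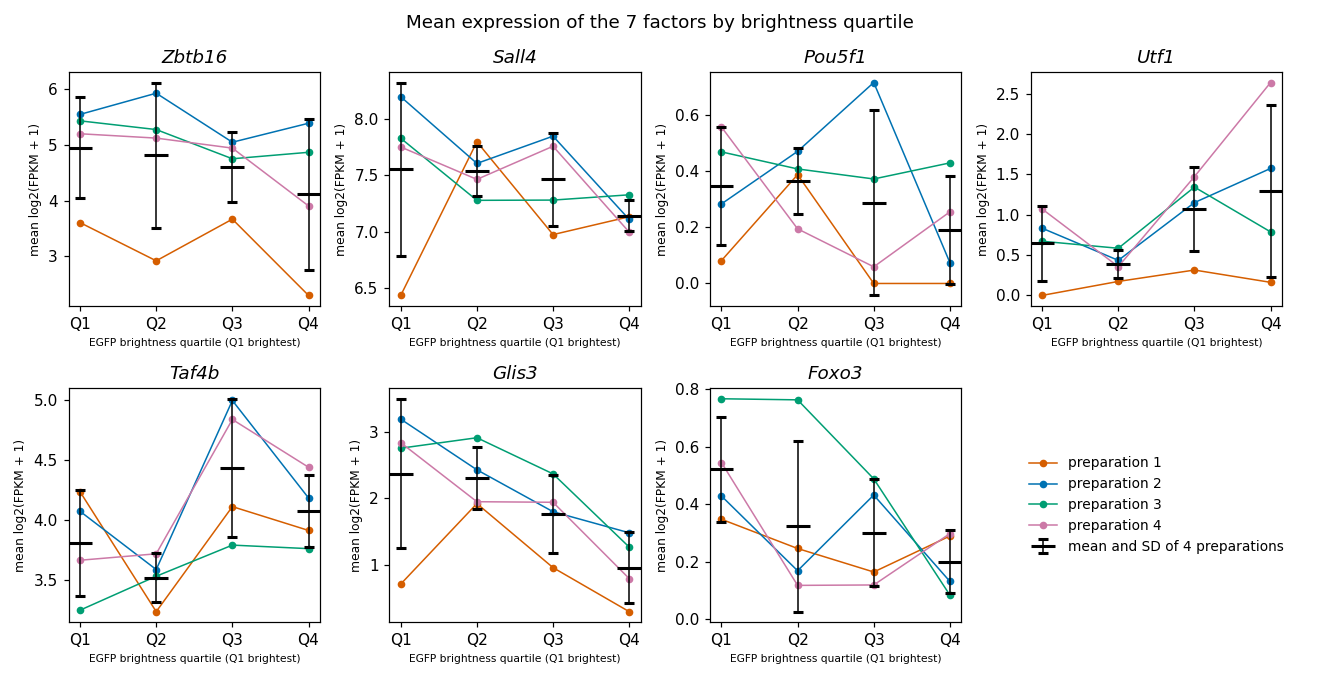
Mean log2(FPKM + 1) over cells (y axis) by brightness quartile from Q1 to Q4 (x axis) for each of the 7 genes, with 1 coloured line per preparation and the mean and SD of 4 preparations in black. Glis3 is lower in Q4 than in Q1 in all 4 preparations, and preparation 1 has the lowest Zbtb16 in every quartile.

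Glis3 spans chr19:28258851-28680077 on the minus strand (GENCODE vM21, GRCm38), and of its 8842 exonic bases stretches of 102 to 110 had copies at 95% identity or more in 6 other genes. Its mean log2(FPKM + 1) in preparations 1 to 4 was 0.71, 3.19, 2.75 and 2.84 in Q1 cells, against 0.30, 1.48, 1.27 and 0.79 in Q4 cells. Q1 of preparation 1 lay inside the range of Q4, the other Q1 means lay above it, and within every preparation Q1 exceeded Q4. The intermediate quartiles averaged 2.30 ± 0.47 in Q2 and 1.77 ± 0.59 in Q3 (SD, n = 4). Q1 exceeded Q4 by 1.41 (limma, SE 0.34, 95% confidence interval 0.71 to 2.11, adjusted p = 0.019). The same comparison called 338 of 10411 tested genes, which is 3.25%. Glis3 also passed for the trend, which rose by 0.48 for each step to the next brighter quartile (SE 0.11, adjusted p = 0.00906), where 4.51% of genes were called. Without preparation 1 the difference was 1.74 (adjusted p = 0.0144), and without preparation 2, 3 or 4 it was 1.31, 1.39 or 1.20 and no longer passed (adjusted p = 0.102, 0.0984 and 0.153). The call for the trend was likewise lost without preparation 2, 3 or 4 (adjusted p = 0.0732, 0.0522 and 0.0878). Neither call held without the preparation block (adjusted p = 0.200 for the difference and 0.0957 for the trend). The call for the difference also ended with no filter on low values, on the log2 of mean FPKM and with centring on the median gene (adjusted p = 0.0521, 0.0808 and 0.0548). With genes detected per cell in the fit, the difference was 1.74 and the trend 0.60, and both passed (adjusted p = 0.0369 and 0.0132).

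More of the bright cells had detectable Glis3. In preparations 1 to 4, Glis3 was at 1 FPKM or more in 3 of 17, 18 of 21, 12 of 19 and 15 of 22 Q1 cells, against 1 of 18, 8 of 20, 6 of 15 and 6 of 19 Q4 cells. Every preparation had a larger share in Q1 than in Q4. The shares averaged 58.7% ± 29.01 of Q1 cells, 58.4% ± 9.17 of Q2 cells, 48.1% ± 19.4 of Q3 cells and 29.3% ± 16.3 of Q4 cells (SD, n = 4). The difference between Q1 and Q4 was 29.4 percentage points (SE 7.55, adjusted p = 0.0358, 1.94% of genes called). The trend was 9.85 points per quartile (SE 2.42, adjusted p = 0.0203, 3.12% of genes called), and the call was lost without preparation 2, 3 or 4 (adjusted p = 0.183, 0.0638 and 0.108). It was also lost without the preparation block (adjusted p = 0.358) and with genes detected per cell in the fit (11.4 points, adjusted p = 0.0619). Too few Glis3-detecting cells remained in some groups for a test of the level among them. Those levels averaged 3.98 ± 0.20 in Q1 and 3.24 ± 0.60 in Q4 (SD, n = 4) on the log2(FPKM + 1) scale.

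**Figure D3:**
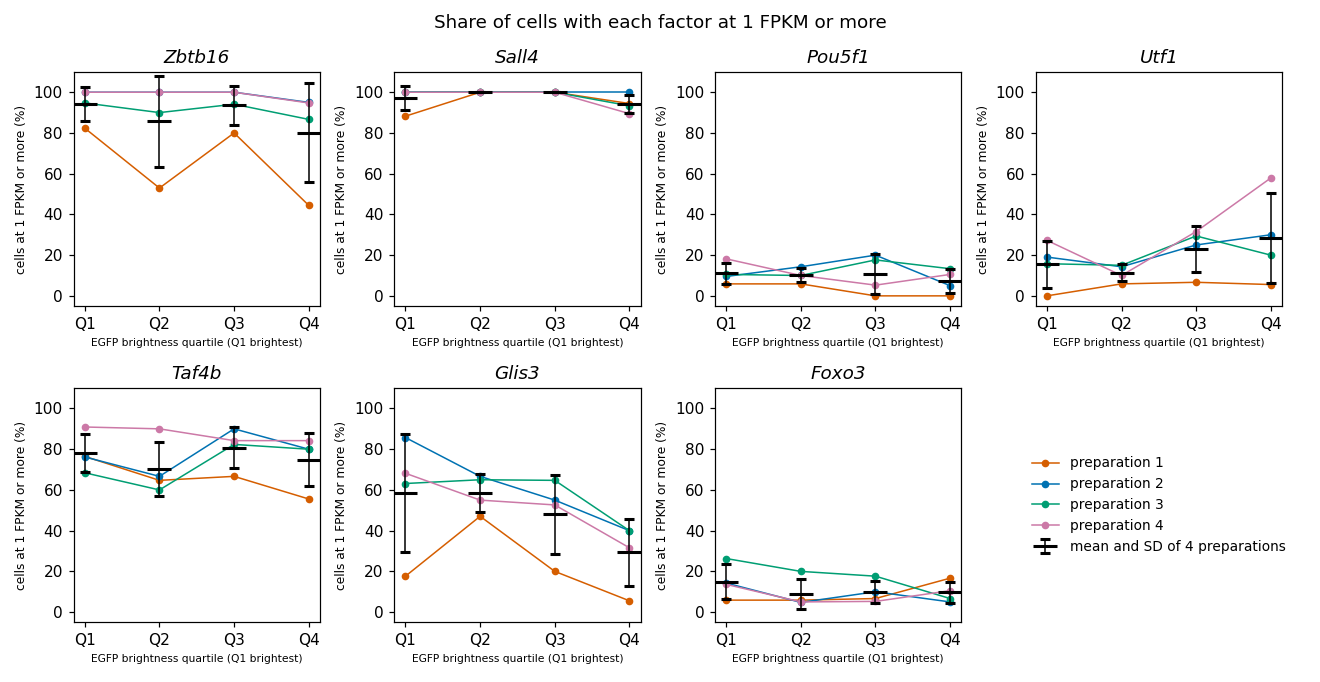
Share of cells at 1 FPKM or more in percent (y axis) by brightness quartile from Q1 to Q4 (x axis), with 1 coloured line per preparation and the mean and SD of 4 preparations in black. Glis3 averages 58.7% in Q1 and 29.3% in Q4, and Utf1 reaches 57.9% in Q4 of preparation 4.

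Utf1 spans chr7:139943789-139945112 on the plus strand. Its mean log2(FPKM + 1) in preparations 1 to 4 was 0.00, 0.83, 0.67 and 1.07 in Q1 cells, against 0.16, 1.57, 0.79 and 2.64 in Q4 cells. Q1 was below Q4 in every preparation, but the 2 ranges overlapped, and the widest gap was in preparation 4. The difference of -0.65 (limma, SE 0.28, 95% confidence interval -1.23 to -0.06, adjusted p = 0.245) and the trend of -0.26 per quartile (SE 0.09, adjusted p = 0.111) did not pass. The lowest average was in Q2, not Q1, at 0.39 ± 0.17, and Q3 averaged 1.07 ± 0.52 (SD, n = 4). Q2 minus Q4 was -0.90 and did not pass either (limma, SE 0.28, adjusted p = 0.186). Utf1 was detected in 0 of 17, 4 of 21, 3 of 19 and 6 of 22 Q1 cells, against 1 of 18, 6 of 20, 3 of 15 and 11 of 19 Q4 cells. The share thus averaged 15.5% ± 11.4 in Q1 and 28.4% ± 22.1 in Q4 (SD, n = 4), and its trend of -5.04 points per quartile did not pass (adjusted p = 0.188). The Utf1 trend became -0.32 and passed once each mean was centred on its median gene (adjusted p = 0.0444). Without preparation 1 the Q1 minus Q4 difference of Utf1 was -0.81 (adjusted p = 0.250), and without preparation 4 it was -0.34 (adjusted p = 0.606).

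Zbtb16, the PLZF gene at chr9:48654297-48836222 on the minus strand, was abundant in all quartiles. Its mean log2(FPKM + 1) in preparations 1 to 4 was 3.60, 5.54, 5.43 and 5.20 in Q1 cells, against 2.30, 5.38, 4.86 and 3.90 in Q4 cells. All 4 preparations had the larger value in Q1, while the ranges of the quartiles overlapped. The difference of 0.83 (limma, SE 0.34, 95% confidence interval 0.13 to 1.53, adjusted p = 0.211) did not pass, nor did the trend of 0.27 per quartile (SE 0.11, adjusted p = 0.157). The share of Zbtb16-detecting cells was 94.3% ± 8.32 in Q1, against 80.2% ± 24.2 in Q4 (SD, n = 4, adjusted p = 0.151). That gap was 37.9 points in preparation 1, with 14 of 17 Q1 cells and 8 of 18 Q4 cells, and 5.00 to 8.07 points in the others. Without preparation 1 the difference in level was 0.67 (adjusted p = 0.371). Among detecting cells the level was 5.20 ± 0.58 in Q1, against 5.05 ± 0.74 in Q4 (SD, n = 4).

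Sall4 lies at chr2:168748332-168767943 on the minus strand, and an antisense gene, Gm14261, shares 526 exonic bases with it, which an unstranded library cannot separate. Its mean log2(FPKM + 1) in preparations 1 to 4 was 6.44, 8.20, 7.83 and 7.75 in Q1 cells, against 7.13, 7.11, 7.33 and 7.00 in Q4 cells. Q1 was the larger in preparations 2, 3 and 4 and the smaller in preparation 1. The difference of 0.41 (limma, SE 0.26, 95% confidence interval -0.13 to 0.95, adjusted p = 0.469) did not pass. Without preparation 1 it was 0.78, still short of the threshold (adjusted p = 0.0525), and without preparation 2, 3 or 4 it was 0.19, 0.38 or 0.30 (adjusted p = 0.861, 0.674 and 0.741). Sall4 was detected in all Q1 cells of preparations 3 and 4, against 14 of 15 and 17 of 19 Q4 cells. Among detecting cells, Q1 minus Q4 was -0.27, 1.09, -0.02 and -0.04 in preparations 1 to 4. The estimate there was 0.19 (limma, SE 0.23, adjusted p = 0.835), so only preparation 2 had the larger level in Q1. In untransformed units the means over all cells were 275 ± 56.1 FPKM in Q1 and 243 ± 27.5 FPKM in Q4 (SD, n = 4).

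Taf4b, at chr18:14783245-14900359 on the plus strand, had its highest mean in Q3. The log2(FPKM + 1) means were 3.80 ± 0.44 for Q1, 3.52 ± 0.20 for Q2, 4.43 ± 0.58 for Q3 and 4.07 ± 0.30 for Q4 (SD, n = 4). Q1 was below Q4 in 3 of 4 preparations, by a difference of -0.27 in all (limma, SE 0.34, 95% confidence interval -0.97 to 0.43, adjusted p = 0.764). It was -0.47 without preparation 1, -0.10 without preparation 4 and -0.14 without the 13 cells with somatic markers, and passed in none of these (adjusted p = 0.608, 0.944 and 0.901). Detecting cells made up 78% ± 9.38 of Q1 and 74.9% ± 13.1 of Q4 (SD, n = 4). Taf4b had the widest range among members, up to 1606 FPKM in 1 cell of Q3, and 30 cells held 50.5% of its summed FPKM.

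Foxo3, at chr10:42181841-42276755 on the minus strand, was detected in few cells of any quartile. Its mean log2(FPKM + 1) in preparations 1 to 4 was 0.35, 0.43, 0.77 and 0.54 in Q1 cells, against 0.29, 0.13, 0.08 and 0.30 in Q4 cells. The 4 Q1 means all lay above the 4 Q4 means, but they rest on few cells. Foxo3 was detected in 1 of 17, 3 of 21, 5 of 19 and 3 of 22 Q1 cells, against 3 of 18, 1 of 20, 1 of 15 and 2 of 19 Q4 cells. Preparation 1 thus had the smaller share in Q1, and its Q1 mean came from 1 cell at 59.02 FPKM. The difference of 0.32 (limma, SE 0.17, 95% confidence interval -0.02 to 0.66, adjusted p = 0.339) did not pass, and it was 0.20 without preparation 3 and 0.14 after centring on the median gene (adjusted p = 0.705 and 0.731). Pou5f1, at chr17:35506018-35510772 on the plus strand, averaged 0.35 ± 0.21 in Q1 and 0.19 ± 0.19 in Q4 (SD, n = 4), on 9 of 79 and 5 of 72 cells. Its difference of 0.16 (limma, SE 0.17, 95% confidence interval -0.18 to 0.50, adjusted p = 0.709) did not pass, and it became -0.019 after centring on the median gene. The Pou5f1 exons share 317 bases with the antisense gene Gm19553. Both intervals include 0, which does not exclude a change of either gene in these cells. The adjusted threshold is stricter than such an interval, since Zbtb16 and Utf1 had intervals clear of 0 and did not pass.

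**Figure D4:**
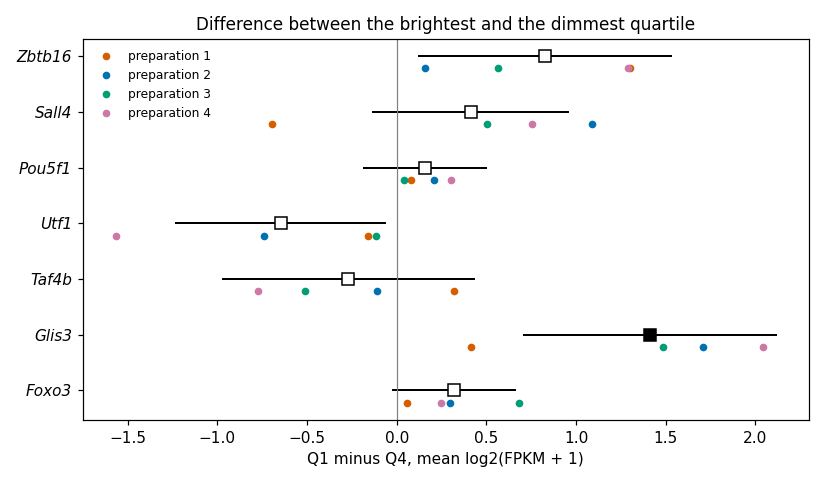
Q1 minus Q4 difference in mean log2(FPKM + 1) (x axis) for each of the 7 genes (y axis), as the limma estimate (square, filled where the adjusted p was under 0.05) with its 95% confidence interval, and the difference in each preparation as a coloured point below it. Glis3 is at 1.41 with all 4 preparations above 0, and Utf1 is at -0.65 with all 4 below 0.

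Between Q1 and Q4 the members counted 1 higher and 0 lower among 7 at an adjusted p under 0.05, and 3 (Zbtb16, Utf1 and Glis3) at an unadjusted p under 0.05, where 16.3% of all tested genes stood. The median of the 7 differences was 0.32, against 0.10 over all tested genes. No member passed in any other pair of quartiles by limma. At an unadjusted p under 0.05 there were 0 members for Q1 against Q2 and 0 for Q1 against Q3. There were 2 for Q2 against Q3 (Utf1 and Taf4b), 2 for Q2 against Q4 (Utf1 and Glis3) and 1 for Q3 against Q4 (Glis3). Over all tested genes, an unadjusted p under 0.05 was found for 5.73%, 12.3%, 7.37%, 11.4% and 6.58% in that order, and the adjusted p called 0.0192%, 0.98%, 0%, 0.307% and 0.00961%. Glis3 came closest, with 1.34 between Q2 and Q4 (SE 0.34, adjusted p = 0.0721). The trend of the level among detecting cells could be tested for Zbtb16 (0.11 per quartile), Sall4 (0.06) and Taf4b (-0.23), none of which passed (adjusted p = 0.718, 0.803 and 0.510) or had an unadjusted p under 0.05. Over the 5984 genes of that fit, 0.485% were called and 10.5% had an unadjusted p under 0.05.

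Most of the variation in each member lay between cells of the same preparation and quartile. This part of the sum of squares on the log2(FPKM + 1) scale was 96.3% for Taf4b, 95.8% for Pou5f1, 95.5% for Foxo3, 94.1% for Sall4, 87.3% for Utf1, 83.5% for Glis3 and 79.1% for Zbtb16. Preparations took 16.9% of the Zbtb16 variation and 6.59% of that of Glis3. Quartiles within preparations took 9.96% for Glis3, 7.35% for Utf1 and 2.71% to 4.41% for the other 5, shares that also hold the chance differences between means of 15 to 22 cells.

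The members were weakly related to each other from cell to cell. Across 300 cells centred on the mean of their preparation and quartile, Pearson's r ran from -0.12 (Taf4b with Foxo3) to 0.19 (Zbtb16 with Glis3) over the 21 pairs, with 0.16 for Sall4 with Glis3 and 0.11 for Zbtb16 with Sall4, whose proteins bind each other. Genes of the same cell share its library and depth, and cells differed in depth, with 2934 to 7817 genes detected. With genes detected per cell, r was 0.24 for Utf1, 0.20 for Taf4b, 0.14 for Pou5f1 and -0.06 for Glis3 after centring on preparations.

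The genes most like each member were sought across the same cells, centred on preparations, by the highest Pearson r of log2(FPKM + 1). For Glis3 these were Spry2 (0.36), an inhibitor of receptor tyrosine kinase signalling, the carbonyl reductase gene Cbr1 (0.33) and Etv5 (0.32), an ETS factor of stem cell self-renewal. Their own Q1 minus Q4 differences were 2.25, 1.58 and 3.74. Centring on preparations leaves the quartile differences in r, so the choice itself favours genes that differ between quartiles as the member does, and these differences are given as a description. For Utf1 they were the imprinted gene Phlda2 (0.31), the NADPH oxidase subunit Cyba (0.30) and the proto-oncogene Mycn (0.27), of which Cyba had a Q1 minus Q4 difference of -1.65. Cyba is also a gene of leukocytes. All 7 leukocyte markers in the table were detected in some cell, and their summed level per preparation ran from 0.465 to 451 FPKM in Q1 and from 12.3 to 184 FPKM in Q4. Without the 13 cells with somatic markers, 5 of which had Utf1, the Utf1 trend was -0.27 (adjusted p = 0.0911).

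Zbtb16 was most like the syndecan gene Sdc4 (0.30), the RNA-binding protein gene Rbpms (0.29) and the methionine synthase gene Mtr (0.28). Sall4 was most like Sdc4 (0.35), the zinc finger gene Zfp462 (0.34) and the SUMO gene Sumo3 (0.32). By Spearman's rho these were 0.16, 0.30 and 0.36, so Sdc4 was first by Pearson r only. Taf4b was most like the methyltransferase gene Tpmt (0.26), the ubiquitin ligase gene Rnf20 (0.25) and the nucleophosmin gene Npm1 (0.25). Pou5f1 was most like the chemokine gene Cxcl16 (0.26), Trim9 (0.26) and Nfat5 (0.25), and Foxo3 most like Thtpa (0.22), Stk35 (0.22) and Myh6 (0.21). Both genes were at 1 FPKM in only 7 cells for Foxo3 with Thtpa and 10 for Pou5f1 with Trim9. The relation of Pou5f1 with Cxcl16 had only 5 such cells, so its r, like those, rests on few cells. Its Spearman's rho was -0.39, but Pou5f1 was at 0 in 269 of 300 cells. Centring gives such cells a rank set by their preparation, so this rho does not describe a relation between cells.

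The members were also set against the 18 tested genes of a list of other regulators of undifferentiated spermatogonia, as a description with no test. The highest r of Glis3 was with Etv5 (0.32) and Gfra1 (0.27), the GDNF co-receptor, and the lowest with Dmrt1 (-0.13). The highest r of Utf1 was with Sohlh1 (0.18), a factor of early spermatogonial differentiation, and the lowest with Etv5 (-0.20) and Foxc2 (-0.18). Zbtb16 and Sall4 had their highest r with Ret (0.21) and Gfra1 (0.21), the subunits of the GDNF receptor. Taf4b was lowest with Ret (-0.19).

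**Figure D5:**
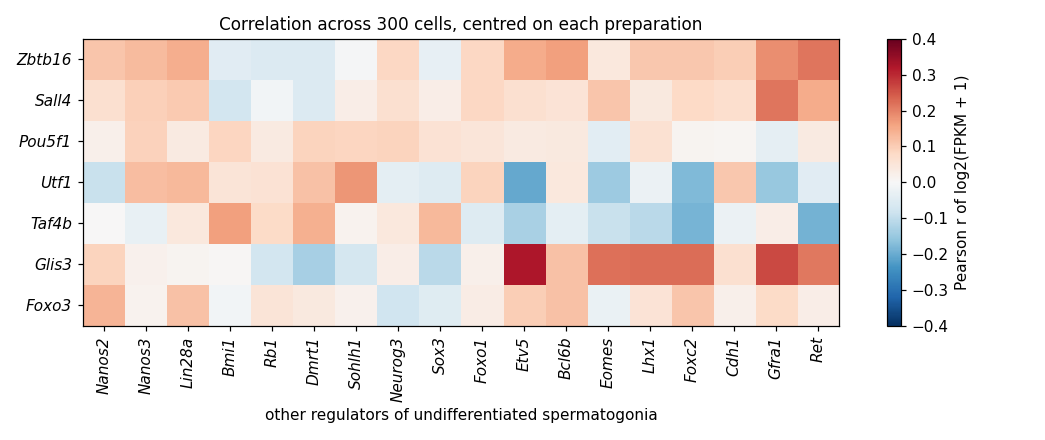
Pearson r across 300 cells (colour, from -0.4 in blue to 0.4 in red) between each of the 7 genes (rows) and 18 other regulators of undifferentiated spermatogonia (columns), on log2(FPKM + 1) values centred on each preparation. The strongest value is 0.32 for Glis3 with Etv5, where Utf1 has -0.20.

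The split by Etv5 shows the same cells as counts. Among the 18 regulators, Etv5 had the highest r with Glis3 and the lowest with Utf1 in these same cells. Opposite directions over all cells thus follow from that choice. Glis3 was at 1 FPKM or more in 123 of 216 Etv5-detecting cells (56.9%), against 27 of 84 cells without Etv5 (32.1%), and Utf1 in 34 of 216 (15.7%), against 26 of 84 (30.95%). Since Etv5 itself followed brightness, the split was repeated within quartiles. Among Etv5-detecting cells, Glis3 was found in 47 of 75 Q1 cells, 44 of 71 Q2 cells, 24 of 46 Q3 cells and 8 of 24 Q4 cells, shares of 62.7%, 61.97%, 52.2% and 33.3%. Within Q4, the Glis3 shares were 33.3% with Etv5 and 27.1% without it, and the Utf1 shares were 16.7% and 35.4%. Without Etv5, Glis3 was found in 1 of 4 Q1 cells, 2 of 7 Q2 cells, 11 of 25 Q3 cells and 13 of 48 Q4 cells. Utf1 with Etv5 was found in 13 of 75 Q1 cells, 9 of 71 Q2 cells, 8 of 46 Q3 cells and 4 of 24 Q4 cells. Without Etv5, Utf1 was found in 0 of 4 Q1 cells, 0 of 7 Q2 cells, 9 of 25 Q3 cells and 17 of 48 Q4 cells. Hardly any Q1 or Q2 cells lacked Etv5, so the split can be read in Q3 and Q4 only. A split by Gfra1 gave Glis3 in 59.2% of cells with it and 37.3% without, and Utf1 in 18.4% and 22.2%. Within quartiles, Glis3 was more frequent with Gfra1 in Q1, Q2 and Q4, and less frequent in Q3 (42.9% against 55.6%). Both splits are counts of cells pooled over preparations, with no test.

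Partner and paralog lists gave few calls, beside 3.25% of all tested genes called between Q1 and Q4 and 16.3% at an unadjusted p under 0.05. Of 13 tested NuRD subunits, the corepressor complex that SALL4 recruits, 1 rose in Q1 against Q4 and 0 fell, the remodeller gene Chd4 by 1.40 (limma, SE 0.33, adjusted p = 0.0168). It was the 1 subunit at an unadjusted p under 0.05, and the list's median was -0.03, against 0.10 over all tested genes. Of 10 corepressors of BTB zinc finger proteins 0 passed, with 2 at an unadjusted p under 0.05 and a median of 0.14. Of 14 other TFIID subunits 0 passed, with 0 at an unadjusted p under 0.05 and a median of 0.20. Of 13 tested FOXO target genes 0 passed, with 2 at an unadjusted p under 0.05 and a median of 0.28. Of 22 listed genes of the pluripotency network, 11 were tested. Of these 1 rose, Dppa4 by 1.59 (SE 0.42, adjusted p = 0.0344), and 0 fell. There were 5 at an unadjusted p under 0.05, in both directions, and the median was 0.02. The list of other regulators, like the other lists, was chosen with earlier results of these data known, so its counts are a description. Of 18 tested other regulators 6 rose and 1 fell, with 12 at an unadjusted p under 0.05 and a median of 0.14. Etv5, Gfra1, Eomes and Foxc2 had the smallest p among them, at 3.74, 3.44, 2.43 and 2.32 (adjusted p = 7.33e-07, 7.81e-06, 7.14e-05 and 0.000275), and Sohlh1, named after its values were seen as the 1 that fell, did so by 1.98 (adjusted p = 0.00132).

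Of 13 tested paralogs of the members 1 rose in Q1 against Q4 and 0 fell, Sall3 by 1.14 (limma, SE 0.32, adjusted p = 0.0457), with 1 at an unadjusted p under 0.05 and a list median of -0.05. Levels of paralogs, picked after the values were seen, are set side by side. The mean log2(FPKM + 1) was 0.34 for Foxo3 and 5.09 for Foxo1, the family member known to act in these cells, whose own difference of -0.59 did not pass (adjusted p = 0.391). It was 3.96 for Taf4b and 1.04 for Taf4a, the row of its widely expressed paralog. It was 1.85 for Glis3, 2.33 for Glis1 and 1.05 for Glis2, and 7.42 for Sall4, 1.40 for Sall1 and 1.08 for Sall3.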

How the data were processed

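The deposited table holds FPKM values per gene name and cell. Its header names no unit, and the authors' unit is inferred from Cufflinks, a tool listed per the submitters' processing notes beside FastQC, Picard and TopHat, with no version. The builds listed there are GRCm38 and mm10. Low values did not come in whole-fragment steps, so depth per cell is unknown and no count model was used. No column lacked a sample and no 2 columns were identical. Per the labels' protocols, imaging of the chip removed dead cells, debris and multiplets, and the SMARTer cDNA kit used is unstranded.

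The mean of log2(FPKM + 1) over cells was taken for each of the 16 combinations of preparation and quartile. A fold on this scale understates changes of low genes. limma 3.58.1 in R 4.3.3, with trended and robust variances, was fitted to all tested genes with quartile and, as a block, preparation. The title number was read as the preparation. The pairing comes from quartiles of a number sharing animals and chip. Deviations correlated at 0.0112 to 0.360 (median 0.129) within a preparation. Between different preparations they correlated at -0.249 to 0.137 (median -0.043), a range that overlaps the first. P-values were adjusted by Benjamini-Hochberg across all tested genes, with a threshold of 0.05. Shares of cells at 1 FPKM or more and the level in such cells (genes with at least 3 in each group) were fitted likewise. Transcripts were compared with blastn 2.17.0, and only Glis3 had copies at 95% identity over 100 bases or more in other annotated genes.

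Named genes were the 7 members, the 3 named genes most like each of them by Pearson r, and, for each list, up to 4 genes passing Q1 against Q4 or the trend by smallest p, skipping predicted genes and clone names. The members and lists were chosen with earlier results of these data known. Alternatives covered pseudocounts, filters, scaling, the block, detected genes as a covariate and each preparation left out. Id4 and the mitochondrial genes were not analysed here.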

Additional observations from a re-analysis of the deposited data

Results flagged for a closer look

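Among 68 sets of 4 preparations examined, 4 had a preparation set apart from the other 3 by more than Dixon's 95% criterion, and chance alone sets apart about 1 in 20. Preparation 1 was low for the share of Zbtb16-detecting cells in Q4, at 44.4% against 86.7% to 95% in the other preparations. It was also low for Sall4 in Q1, at 88.2% against 100% in the others, which is 15 of 17 cells, and since the others tie at the ceiling any gap would have met the criterion. It was low as well for Taf4b in Q4, at 55.6% against 80% to 84.2%. This preparation also had the fewest genes detected per cell, 4368 on average, and the part of that difference in the shares was not tested. Preparation 3 was high for Foxo3 in Q2, at 20% against 4.76% to 5.88%, which is 4 of 20 cells.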

How the results depend on the processing

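Glis3 kept its direction under every alternative run and its calls in some. The Q1 minus Q4 difference was 1.41 and did not pass without the preparation block (the paired fit has the same value) and with no filter on low values, where more genes are adjusted over. It was 1.95 on the log2 of mean FPKM and 1.23 with means centred on the median gene, also without passing (adjusted p = 0.0808 and 0.0548), and 1.20 to 1.74 with 1 preparation left out. A pseudocount of 0.1 gave 2.40 and one of 5 gave 0.78, both past the threshold (adjusted p = 0.0177 and 0.0273), with trends of 0.81 and 0.27 that also passed. Over all 15 alternatives its adjusted p ran from 0.0144 to 0.200. Its trend was 0.48 without the block and 0.43 to 0.56 with 1 preparation left out. Its count of called pairs was 0 in place of 1 in each setting in which the Q1 minus Q4 difference did not pass. The trend of its share was 9.85 points without the block, 11.4 with detected genes as a covariate and 8.18 to 11.03 with 1 preparation left out. The cause was not tested.

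Centring took the Utf1 trend to -0.32, past the threshold, and turned Pou5f1 to -0.019 for Q1 minus Q4 and -0.0038 for the trend. It moved the median difference over all genes to -0.08 in place of 0.10 and the share of calls that were higher in Q1 to 57.8% in place of 83.7%. The Taf4b share trend of -0.13 points turned to 0.59 with detection above 0 FPKM and to 0.88 without the 13 cells with somatic markers, an alternative added after seeing the data, and ran from -2.20 to 1.73 with 1 preparation left out. In the same way the Foxo3 share trend ran from -0.048 to 3.10 and the Sall4 level trend from -0.016 to 0.10. None of these 3 passed in any setting.

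Genes called between Q1 and Q4 numbered 177 with no filter, 99 without the block, 80 on the log2 of mean FPKM, 135 with the covariate and 137 to 270 with 1 preparation left out. For the trend they numbered 274, 177, 113, 197 and 176 to 354 in those settings. Genes called for the share trend numbered 77 without the block, 122 with the covariate and 104 to 161 with 1 preparation left out, and for the level trend 15 without the block and 0 to 34. Pou5f1 and Foxo3 dropped out under the stricter filter. A member detected in few cells limits what could be seen at this number of cells.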
